A study of Mus musculus with 6 samples.

Results

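The mechanistic target of rapamycin (mTOR) is a kinase that works in 2 complexes, and 10 genes of this machinery were followed in lung group 2 innate lymphoid cells (ILC2s) treated with melatonin or vehicle. The list was given by gene name: the kinase *Mtor*, its shared partner *Mlst8*, the subunits that define each complex (*Rptor* for mTORC1, *Rictor* for mTORC2), the activating GTPase *Rheb*, the brakes *Tsc1*, *Tsc2*, *Deptor* and *Akt1s1*, and the effector kinase *Rps6kb1*. All 10 were among the 16381 genes with deposited values, and all 10 passed the filter on low values that left 14419 genes for testing. mTORC1 senses amino acids, growth factors and energy at the lysosome and promotes protein synthesis and glycolysis while it restrains autophagy. mTORC2 phosphorylates AKT, SGK1 and protein kinase C. In lymphocytes these complexes tie activation to growth and to the use of glucose, and ILC2s are lung-resident lymphocytes that make IL-5 and IL-13.

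ILC2s were sorted from digested lungs of wild type (WT) BALB/cJ mice aged 6 to 8 weeks as live CD45+, lineage-negative, ST2+ CD127+ cells, a gate that leaves out cells with surface markers of T, B, NK, myeloid, mast and red cells and, through CD45, epithelial and endothelial cells. Every mouse had received 0.5 µg of recombinant IL-33 through the nose on each of 3 days, so both groups hold activated cells (aILC2s) and neither holds resting ones. Culture then went on for 24 h in the presence of 250 µM melatonin or of DMSO, the solvent (vehicle), and RNA was sequenced from 3 samples per group. The labels do not say whether the 3 samples of a group came from separate mice, so p-values measure the spread between these samples, which may in part be technical. The sample identifiers of the melatonin group run apart from those of the vehicle group, and the labels do not say what the numbers mark, so any batch they stand for cannot be told apart from treatment.

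Estimated counts, the reads assigned to genes, summed to between 17056267 and 20511708 per sample, and a normalized count is an estimated count divided by the authors' size factor of its sample. All 14 ILC2 markers were present, with summed levels of 219136 to 233194 normalized counts in vehicle and 152052 to 169930.0 in melatonin samples. Of these markers 9 were called lower, among them *Klrg1* (-2.16), *Thy1* (-2.88) and *Il5* (-0.75), the largest part of the sum, while *Il1rl1*, the gene of ST2 (0.63), and *Rora* (0.64) were called higher and *Gata3*, *Icos* and *Ptprc* were not called. Summed markers of other cells were lower in the melatonin samples for 7 myeloid genes (1449 to 1657 against 362 to 844), 5 NK cell genes (5944 to 7224 against 75.6 to 210.1, mostly *Gzma*), 4 T cell genes (5037 to 5476 against 1709.8 to 2423, mostly *Trbc1* and *Trbc2*), 2 B cell genes (289 to 322 against 131 to 162) and the endothelial gene *Pecam1* (1001 to 1066 against 310.0 to 416). The sum overlapped for 7 epithelial genes (941 to 2325 and 1058 to 1261), but *Epcam* carries most of it in the melatonin samples and was called higher (667 ± 67.6 against 1097 ± 116), while *Scgb1a1*, *Sftpc*, *Krt8* and *Krt18* were called lower, with *Sftpc* of alveolar cells at 155, 122 and 389 in vehicle and 6.54, 5.46 and 3.02 in melatonin samples and *Krt8* at 0 in every melatonin sample. Sums also overlapped for 3 mast cell genes (5.62 to 58.8 and 1.87 to 67.4) and 3 red cell genes (31.9 to 55.1 and 24.04 to 56.0). Among defining markers of T cells, *Trac* reached at most 13.1, while *Cd4*, *Cd8a* and *Cd5* were not among the genes with deposited values. The T cell gene *Cd3e* stood higher, at 212, 226 and 192 in vehicle and 117, 40.4 and 39.2 in melatonin samples, and was called lower. *Ncr1* of NK cells was at 101 to 114 in vehicle and at 0 in melatonin replicates 1 and 2. *Scgb1a1* of airway club cells was at 1045 in vehicle replicate 3 and at most 95.2 elsewhere. The sort was set to leave these cells out, and their part in the results was not tested. In RNA pooled from many cells, fewer cells of a type and less RNA per cell cannot be told apart. The study's methods name female mice, yet the sum of 4 Y-linked genes was 2991, 2993 and 2679.7 in vehicle replicates 1 to 3, 3038 in melatonin replicate 1 and 0 in melatonin replicates 2 and 3. Counts of *Xist*, a noncoding RNA made in female cells, were 13.6, 7.46 and 5.81 in vehicle, 0 in melatonin replicate 1 and 579 and 1091 in melatonin replicates 2 and 3, so the melatonin samples did not all share one source and the groups differed in these sex-linked genes. All 10 genes of the list lie on autosomes, but a difference in source is not limited to sex-linked genes. For melatonin replicates 2 and 3, source and treatment cannot be told apart for any gene. The calls among the 10 genes are also given for the 4 libraries with Y-linked reads. There melatonin replicate 1 stands alone for its group and is assumed to vary like the vehicle samples.

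Melatonin-treated ILC2s held less *Rptor* and less *Mtor* mRNA and slightly more *Tsc2* and *Rheb* mRNA than vehicle-treated cells. The other 6 genes (*Mlst8*, *Rictor*, *Tsc1*, *Deptor*, *Akt1s1* and *Rps6kb1*) did not pass the test, which was limma on log2(normalized count + 1) with Benjamini-Hochberg adjustment over all 14419 genes and a threshold of 0.05. Thus 4 of the 10 genes were called, 2 higher and 2 lower, where 49.2% of all genes tested were called, 24.5% higher and 24.7% lower. The groups did not overlap for 6 of the 10 genes, 3 higher and 3 lower with melatonin, where this held for 60.4% of all genes tested, 30% higher and 30.3% lower. Neither share of the list stood above that of all genes. The median log2 fold change of the 10 genes was 0.13, against -0.0046 for all genes tested, and their median absolute log2 fold change was 0.22, against 0.45. Levels below are normalized counts with means ± SD over n = 3 samples per group, samples are given in the order of replicates 1, 2 and 3, and fold changes are fitted differences of log2(normalized count + 1), melatonin minus vehicle.

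**Figure D1:**
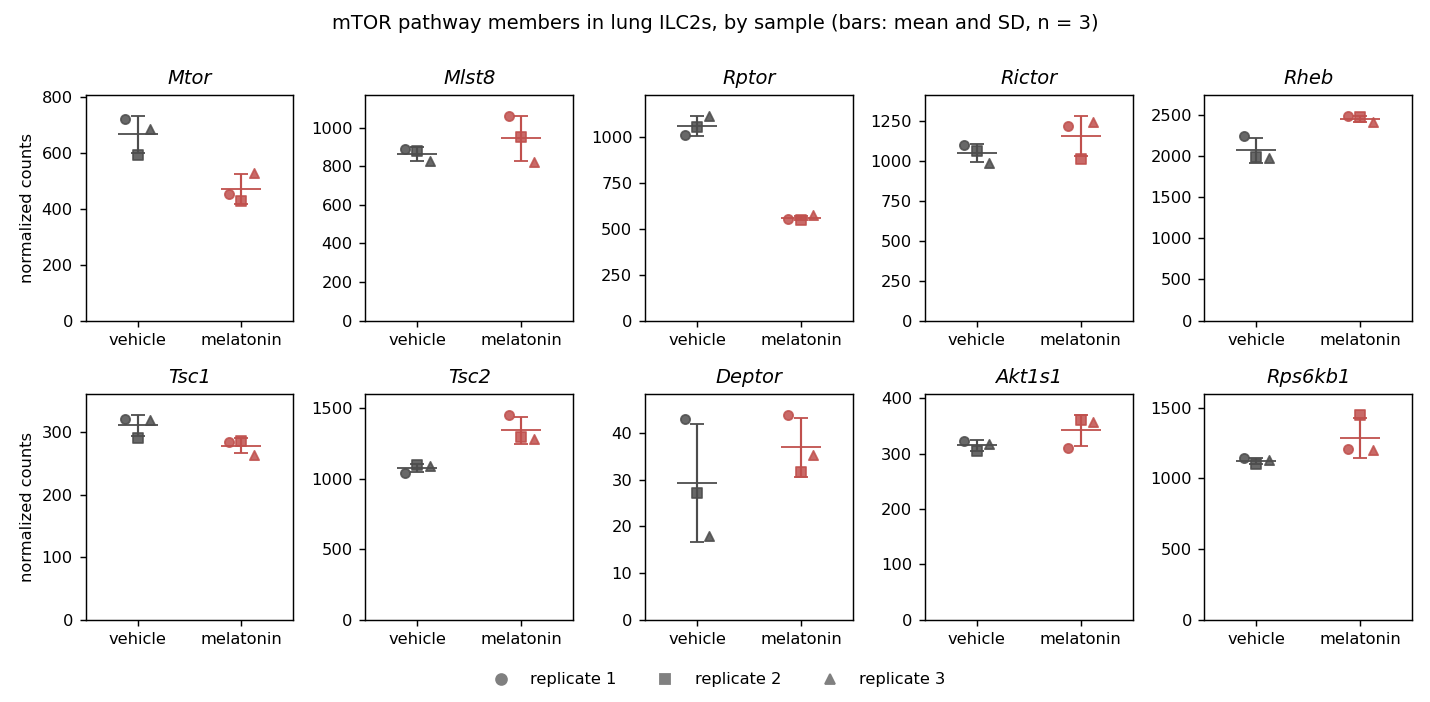
Normalized counts (vertical axis, from 0) of the 10 genes in each vehicle and melatonin sample, with the mean and SD of 3 samples as lines and the replicate number as the marker shape. All melatonin samples lie below all vehicle samples for *Rptor* (at most 572 against at least 1007), *Mtor* and *Tsc1*, and above them for *Tsc2*, *Rheb* and *Rps6kb1*.

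*Mtor* (ENSMUSG00000028991, chromosome 4 from 148533015 to 148642141, forward strand of GRCm39, 58 exons) encodes the kinase that both complexes share. The vehicle samples held 723, 592 and 686 normalized counts and the melatonin samples 453, 428 and 531. Every melatonin sample thus lay below every vehicle sample, and the means were 667 ± 67.6 and 471 ± 53.5, a fold of 0.705. Limma gave a log2 fold change of -0.50 (SE 0.12, 95% confidence interval -0.78 to -0.23, adjusted p = 0.00885). The value was -0.55 (adjusted p = 0.0171) in the libraries with Y-linked reads and -0.48 (adjusted p = 0.0362) without vehicle replicate 3.

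*Rptor* (ENSMUSG00000025583, chromosome 11 from 119493731 to 119790402, forward strand, 34 exons) encodes Raptor, the scaffold that brings substrates to mTORC1 and anchors it at the lysosome, and no other gene of the list differed by as much. It stood at 1007, 1055 and 1115 in vehicle and at 553, 549.6 and 572 in melatonin samples. The groups were far apart beside the spread within them, with means of 1059 ± 54.2 and 558 ± 12.1 and a fold of 0.527. The log2 fold change was -0.92 (SE 0.09, 95% confidence interval -1.12 to -0.73, adjusted p = 0.000109, limma). It was -0.94 (adjusted p = 0.000665) in the libraries with Y-linked reads and -0.88 (adjusted p = 0.00128) without vehicle replicate 3.

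*Mtor* and *Rptor* are the list's genes that fell, and the bases just before their first annotated starts are shown for that reason, read from RefSeq promoter windows (GRCm38.p6) and placed on GRCm39 by an exact single match. The *Mtor* stretch covers chr4:148532789-148533014 and the *Rptor* stretch chr11:119493481-119493730, both on the forward strand, 5′ to 3′, with no capitals because neither window held a motif that was searched.
Mtor: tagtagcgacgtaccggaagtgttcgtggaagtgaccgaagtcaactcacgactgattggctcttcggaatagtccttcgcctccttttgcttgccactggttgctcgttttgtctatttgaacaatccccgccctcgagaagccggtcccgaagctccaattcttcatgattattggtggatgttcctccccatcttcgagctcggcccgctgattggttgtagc
Rptor: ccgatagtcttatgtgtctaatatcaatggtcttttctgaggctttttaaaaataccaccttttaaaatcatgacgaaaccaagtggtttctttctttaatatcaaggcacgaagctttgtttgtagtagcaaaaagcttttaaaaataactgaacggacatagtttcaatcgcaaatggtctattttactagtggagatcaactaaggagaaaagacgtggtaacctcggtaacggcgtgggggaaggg
The RefSeq start of *Rptor* lies 244 bases before the start of its canonical transcript in release M39.

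*Rictor* (ENSMUSG00000050310, chromosome 15 from 6737860 to 6829882, forward strand, 38 exons) encodes the subunit that defines mTORC2, and *Mlst8* (ENSMUSG00000024142, chromosome 17 from 24692524 to 24698057, reverse strand, 8 exons) encodes the small beta-propeller protein found in both complexes. *Rictor* stood at 1104, 1063 and 991 in vehicle and 1221, 1015 and 1245 in melatonin samples, and the groups overlapped. Its means of 1053 ± 57.1 and 1160.3 ± 126 gave a log2 fold change of 0.14 with an interval of -0.10 to 0.37 (adjusted p = 0.298, limma). *Mlst8* stood at 891, 878 and 825 in vehicle and 1058, 953 and 822 in melatonin samples, again overlapping. Its log2 fold change was 0.12 with an interval of -0.12 to 0.36 (adjusted p = 0.378). The value moved with single melatonin samples, to 0.22 (adjusted p = 0.0990) without replicate 3 and 0.03 (adjusted p = 0.779) without replicate 1. It was 0.29 (adjusted p = 0.0423) in the libraries with Y-linked reads, where replicate 1 is the lone melatonin sample. The spread assumed for it there is that of the vehicle samples, whose SD was 35.3 against 118 among the 3 melatonin samples, so this is not read as a call. *Rictor* moved to 0.23 without melatonin replicate 2 and 0.08 without melatonin replicate 3. The intervals of both genes leave out a fall as large as that of *Rptor*.

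Dividing one gene by another within a library removes the scaling between libraries, and the ratio of *Rptor* to *Rictor* sets the subunit of mTORC1 against that of mTORC2. The ratio of normalized counts was 0.912, 0.992 and 1.12 in vehicle and 0.453, 0.541 and 0.460 in melatonin samples. The *Rptor* count was thus close to the *Rictor* count in each vehicle sample and well below it in each melatonin sample. The log2 ratio differed by -1.06 with no overlap, at an exact two-sided permutation p of 0.1, the smallest that 3 samples against 3 allow, and 0.175 after adjustment over the 7 ratios computed. No such ratio could pass the threshold in this design, and each also depends on transcript lengths, so only the difference between groups is read.

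The tuberous sclerosis complex holds mTORC1 back by switching off the GTPase Rheb, which activates the kinase when bound to GTP. *Rheb* (ENSMUSG00000028945, chromosome 5 from 25007821 to 25047622, reverse strand, 8 exons) stood at 2245, 1989 and 1974 in vehicle and 2478, 2465 and 2409.6 in melatonin samples. All melatonin samples were above all vehicle samples, and the spread was narrower among them, with means of 2069 ± 152 and 2451 ± 36.4 and a fold of 1.18. The log2 fold change was 0.25 (SE 0.08, interval 0.07 to 0.43, adjusted p = 0.0300, limma). This call was the weakest of the 4. It was lost without melatonin replicate 2, at 0.24 (adjusted p = 0.0705), without vehicle replicate 2, at 0.22 (adjusted p = 0.115), and without vehicle replicate 3, at 0.21 (adjusted p = 0.108), and in the libraries with Y-linked reads, at 0.26 (adjusted p = 0.0637). It was also lost with the replicate number as a block (adjusted p = 0.0521), without the mean-variance trend (adjusted p = 0.0691), under upper quartile scaling, at 0.20 (adjusted p = 0.0727), and with a correction for transcript length, at 0.16 (adjusted p = 0.127).

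*Tsc2* (ENSMUSG00000002496, chromosome 17 from 24814783 to 24852192, reverse strand, 41 exons) encodes tuberin, the GTPase-activating subunit of that complex. It stood at 1043, 1099 and 1086 in vehicle and 1452, 1293 and 1283 in melatonin samples. The groups did not overlap, and the means of 1076 ± 29.6 and 1343 ± 94.99 gave a fold of 1.25. The log2 fold change was 0.32 (SE 0.08, interval 0.12 to 0.51, adjusted p = 0.0138, limma). The libraries with Y-linked reads gave 0.43, which is not read as a call because their one melatonin sample is the highest of the 3 and the vehicle SD assumed for it is below that of the melatonin samples. The call was lost without vehicle replicate 1, at 0.29 (adjusted p = 0.0572), and with a correction for transcript length, at 0.21 (adjusted p = 0.0594). Of the exons of its canonical transcript, 18.2% lie under *Pkd1* and *Nthl1* on the other strand, and reads from these cannot be told apart from those of *Tsc2*. *Pkd1*, the polycystin-1 gene, was higher with melatonin (643 ± 5.18 against 947 ± 163, log2 fold change 0.54), and *Nthl1*, a DNA glycosylase gene, was lower (90.8 ± 13.9 against 37.7 ± 11.7, -1.29).

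*Tsc1* (ENSMUSG00000026812, chromosome 2 from 28531061 to 28581179, forward strand, 23 exons) encodes hamartin, which stabilises tuberin. It stood at 322, 291 and 320.0 in vehicle and 285, 286 and 264 in melatonin samples, so the melatonin samples lay below the vehicle samples without overlap but by a small margin. The log2 fold change was -0.16 with an interval of -0.42 to 0.10 and did not pass the test (adjusted p = 0.272, limma). The ratio of *Tsc1* to *Tsc2* was 0.309, 0.265 and 0.295 in vehicle and 0.196, 0.221 and 0.206 in melatonin samples, lower in each melatonin sample than in any vehicle sample. This was a difference of -0.48 in the log2 ratio (exact permutation p = 0.1, adjusted 0.175). The ratio of *Rheb* to *Tsc2*, the GTPase to its brake, overlapped between the groups, at 2.15, 1.81 and 1.82 in vehicle and 1.71, 1.91 and 1.88 in melatonin samples (difference -0.07, exact permutation p = 0.6, adjusted 0.84).

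Among 9 member promoters found in the RefSeq table, 3 motifs were searched on both strands: the E-box CACGTG, read by the clock factors and by the TFEB family, its longer form TCACGTGA, and TGACNNNGC, the core of the antioxidant response element read by NRF2. *Rheb* was the one gene with a match, holding an E-box and 2 antioxidant response element cores. Of all 32851 promoters of this length, 7.15% held the E-box, 0.974% its longer form and 12.4% the antioxidant response element core. The stretch in which a core and the E-box overlap in *Rheb* is shown with the joined motifs in capitals, from chr5:25047441-25047470 on the reverse strand of GRCm39, 5′ to 3′.
Rheb: ggggccgcGCGCGGTCACGTGggtgtgttg
These bases lie inside the first exon of the canonical transcript in release M39, and a match is a description of the letters and not a site of binding.

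*Deptor* (ENSMUSG00000022419, chromosome 15 from 54975710 to 55122667, forward strand, 5 exons) and *Akt1s1* (ENSMUSG00000011096, chromosome 7 from 44498415 to 44504908, forward strand, 5 exons), which encodes PRAS40, are inhibitors that bind the complexes directly. *Deptor* was barely expressed, at 42.9, 27.2 and 17.8 in vehicle and 43.9, 31.7 and 35.2 in melatonin samples. Its vehicle samples spread with a coefficient of variation of 43.3% and its melatonin samples with one of 17.0%, where the vehicle samples of the other 9 genes ran from 1.85% to 10.1%. The log2 fold change of 0.40 had an interval of -0.40 to 1.19 (adjusted p = 0.372, limma) and leaves out a fall as large as that of *Rptor* but not a rise of that size. It moved to 0.71 (adjusted p = 0.148) without vehicle replicate 1 and 0.10 (adjusted p = 0.839) without vehicle replicate 3. *Akt1s1* stood at 324, 305 and 317 in vehicle and 310.0, 361 and 357 in melatonin samples, with overlap. Its log2 fold change was 0.12 with an interval of -0.14 to 0.38 (adjusted p = 0.419), and it moved to 0.19 without melatonin replicate 1 and to -0.02, the other direction, in the libraries with Y-linked reads.

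As a ratio to *Mtor* mRNA, the mRNA of both inhibitors was higher in every melatonin sample than in any vehicle sample. Neither inhibitor gene was called by itself, while *Mtor* was called lower. The ratio of *Akt1s1* to *Mtor* was 0.448, 0.514 and 0.462 in vehicle and 0.685, 0.842 and 0.672 in melatonin samples, a difference of 0.62 in the log2 ratio. The ratio of *Deptor* to *Mtor* was 0.0594, 0.0459 and 0.0260 in vehicle and 0.0969, 0.0740 and 0.0663 in melatonin samples, a difference of 0.90, or 0.58 without vehicle replicate 3. Each had an exact permutation p of 0.1, the smallest possible, and 0.175 after adjustment. Since *Mtor* is the divisor of both, they are not separate evidence.

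**Figure D2:**
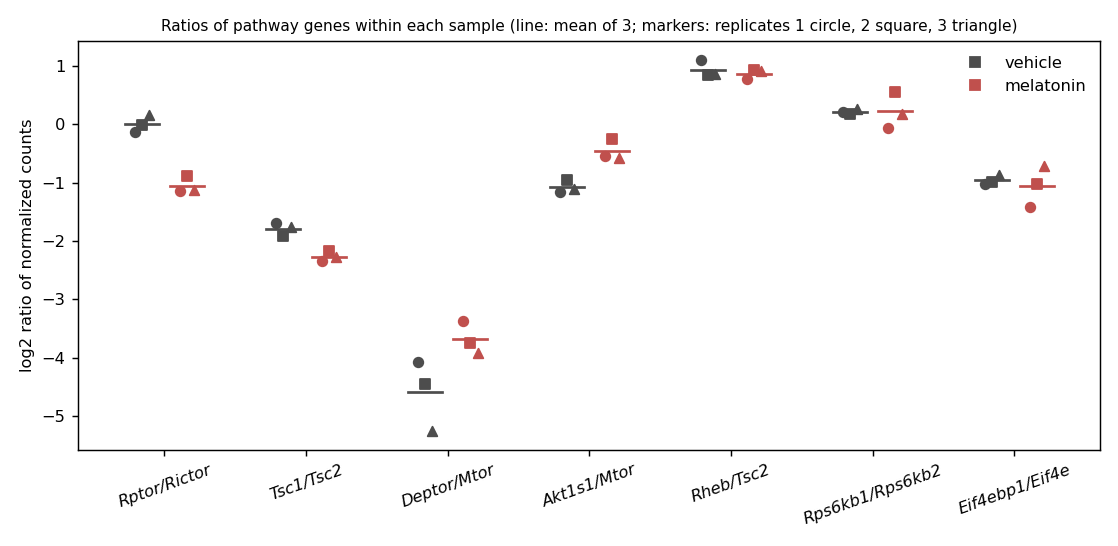
Log2 ratios of normalized counts within each sample (vertical axis) for the 7 pairs of pathway genes, with vehicle in grey, melatonin in red, the replicate number as the marker shape and the mean of 3 as a line. The groups are separate for *Rptor*/*Rictor* (difference -1.06), *Tsc1*/*Tsc2* (-0.48), *Deptor*/*Mtor* (0.90) and *Akt1s1*/*Mtor* (0.62) and overlap for the other 3.

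*Rps6kb1* (ENSMUSG00000020516, chromosome 11 from 86360804 to 86435982, reverse strand, 15 exons) encodes S6 kinase 1, through which mTORC1 drives ribosomal protein S6 and translation. It stood at 1141, 1100.0 and 1128 in vehicle and 1207, 1449.8 and 1197 in melatonin samples. The groups did not overlap, and melatonin replicate 2 was well above the other samples. The log2 fold change of 0.19 (interval -0.03 to 0.41) did not pass the test (adjusted p = 0.132, limma). It was 0.10 (adjusted p = 0.384) without melatonin replicate 2, and with weights that give outlying samples less influence it was called at 0.26 (adjusted p = 0.0298). Its ratio to *Rps6kb2*, the gene of S6 kinase 2, overlapped between the groups, at 1.16, 1.13 and 1.21 in vehicle and 0.960, 1.47 and 1.14 in melatonin samples (difference 0.01, exact permutation p = 0.9, adjusted 0.9).

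**Figure D3:**
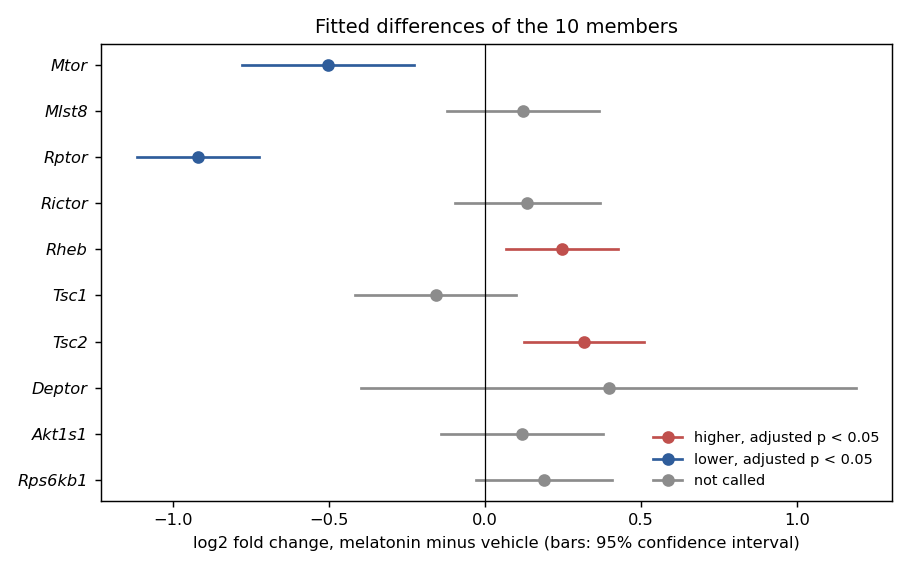
Fitted log2 fold change (horizontal axis, melatonin minus vehicle) of each of the 10 genes with its 95% confidence interval as a bar, in red where called higher, blue where called lower and grey where not called. The interval of *Rptor* (-1.12 to -0.73) lies farthest from 0 and that of *Deptor* (-0.40 to 1.19) is the widest.

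Reads from overlapping genes can enter some of these values, because the library kit does not mark the strand. *Rptor* also has a partner on its own strand, *Gm69672*, which a mark of the strand would not separate. The share of canonical exon bases that lies under another annotated gene is 0 for *Rictor* and *Tsc1*, 1.1% for *Mtor*, 2.78% for *Rps6kb1*, 3.80% for *Deptor*, 13.3% for *Rheb*, 13.8% for *Rptor*, 18.2% for *Tsc2*, 27.3% for *Mlst8* and 28.1% for *Akt1s1*. Apart from *Pkd1* and *Nthl1* over *Tsc2*, a partner was analysed here only for *Rps6kb1*: *Rnft1*, a ubiquitin ligase gene on the other strand, was higher with melatonin (1419.6 ± 94.6 against 1951 ± 188, log2 fold change 0.46). The genes that overlap *Rptor*, *Mlst8*, *Akt1s1*, *Rheb*, *Deptor* and *Mtor* were not analysed here, and the part of any partner in the values of the 10 genes was not tested.

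To compare levels between genes, normalized counts were divided by the length of the merged exons in kb. In vehicle samples the mean (lowest to highest) was 259.8 (248 to 282) per kb for *Rheb*, 194 (185 to 200.4) for *Mlst8*, 104 (101 to 106) for *Tsc2* and 78.6 (74.8 to 82.8) for *Rptor*, each clear of the next. Then came a group whose neighbours overlapped: *Akt1s1* at 65.3 (63.1 to 67.1), *Mtor* at 63.6 (56.5 to 69.0), *Rictor* at 61.9 (58.3 to 64.9) and *Rps6kb1* at 59.5 (58.3 to 60.4). *Tsc1* at 21.5 (20.1 to 22.2) and *Deptor* at 3.30 (2.01 to 4.84) lay below all others and apart from each other. In melatonin samples *Rptor*, at 41.4 (40.8 to 42.5) per kb, had left its place above that group and stood below it beside *Mtor*, at 44.9 (40.8 to 50.6), with which it overlapped. *Akt1s1* at 71.0 (64.3 to 74.7), *Rictor* at 68.2 (59.7 to 73.2) and *Rps6kb1* at 68.1 (63.4 to 76.8) overlapped one another. *Rheb* at 308 (303 to 311), *Mlst8* at 212 (185 to 238) and *Tsc2* at 129.7 (124 to 140.3) kept the top 3 places, *Tsc1* at 19.2 (18.3 to 19.8) and *Deptor* at 4.16 (3.57 to 4.94) the lowest. These levels depend on the length used. With the length of the canonical transcript, an alternative added after the data were seen, *Rheb* stood at 1159.8 per kb in vehicle samples, and *Rptor*, at 161, lay below *Rps6kb1* at 201 and *Akt1s1* at 190.4. In melatonin samples *Rptor* (83.3 to 86.7) then lay above *Mtor* (49.8 to 61.7) with no overlap. On that scale *Rheb* stayed first, *Mlst8* second and *Deptor* last in both groups, but *Rps6kb1* took the third place in both and *Rptor* moved from place 5 in vehicle to place 7 with melatonin.

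For each gene, the closest pattern over the 6 samples was sought among the other genes of the list and 102 further pathway genes, as the root-mean-square difference of log2 values after centring each gene on its mean. *Rptor* ran closest to *Ruvbl2* (0.0727), an ATPase of the TTT-RUVBL assembly machinery for mTOR-type kinases, and *Mtor* to *Lamtor4* (0.0800), a subunit of the Ragulator complex that holds the Rag GTPases at the lysosome. *Tsc2* ran closest to *Depdc5* (0.0397), of the GATOR1 brake, *Tsc1* to *Inpp5d* (0.0493), the lipid phosphatase SHIP1, and *Rheb* to *Sar1b* (0.0818), a small GTPase that senses leucine. *Rictor* ran closest to *Strada* (0.0553), a partner of the kinase LKB1, *Mlst8* to *Akt2* (0.0780), and both *Akt1s1* (0.0206) and *Rps6kb1* (0.0740) to the Ragulator subunit *Lamtor3*. *Deptor* had no near neighbour, its closest being *Ddit4l* at 0.311. These distances are descriptions over 6 samples that fall into 2 groups, in which genes that barely differ between samples lie close to one another.

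The rest of the pathway was followed in 8 lists with 102 genes tested (*Bmt2* and *Irs1* were not analysed here). Of these, 34 rose, 22 fell and 46 were not called, so 54.9% were called where 49.2% of all genes were. Their median log2 fold change was 0.08. Without single libraries the number called higher ran from 27 to 35 and the number called lower from 16 to 24. In the libraries with Y-linked reads, with their 1 melatonin sample, 37 passed the threshold upwards and 25 downwards, counts that rest on the assumed spread. Within the lists, the counts that moved by over 1.5 times in those libraries were 3 higher for the Rag GTPases and Ragulator, 5 higher and 2 lower for the sensors, 0 higher and 2 lower for AMPK and stress genes, 8 higher for mTORC1 targets and 4 higher for mTORC2 targets. Without the mean-variance trend the calls of *Prkcb* (adjusted p = 0.0539), *Pik3ca* (0.0617), *Rragc* (0.0705), *Cab39* (0.0738), *Pik3cg* (0.0750) and *Akt1* (0.116), all described below, were lost, as was that of *Cab39* in the libraries with Y-linked reads (adjusted p = 0.0806). Adjusted p-values for single genes below are from the same limma fit.

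**Figure D4:**
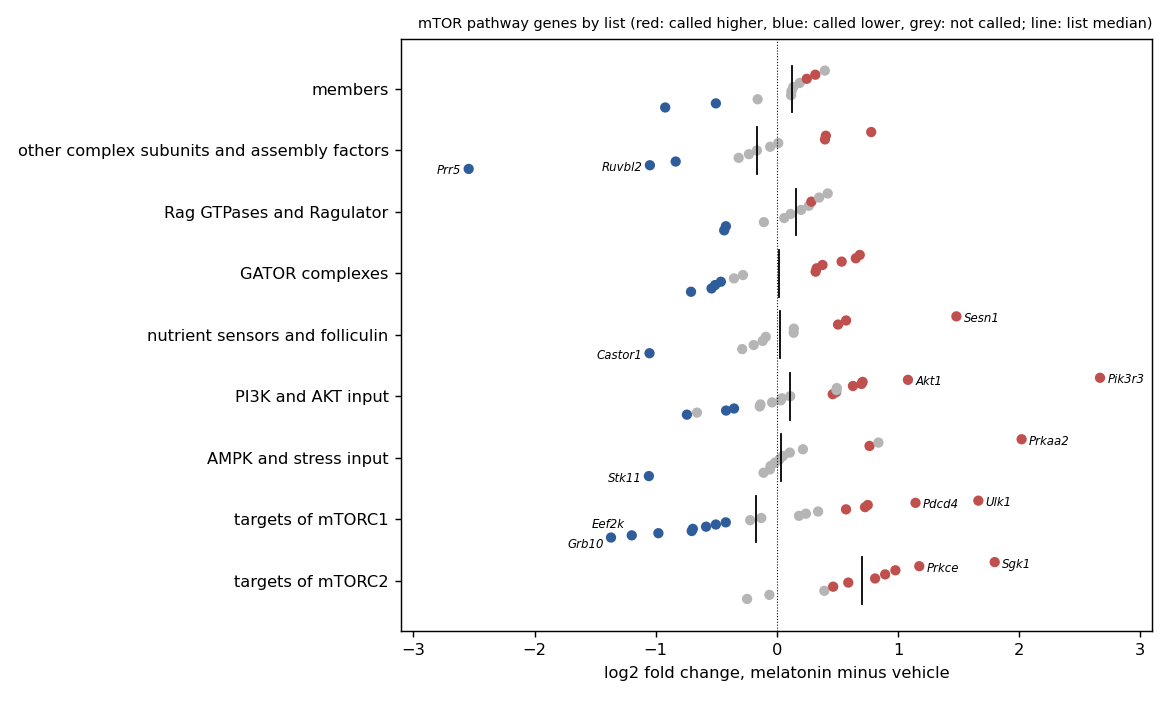
Fitted log2 fold change (horizontal axis, melatonin minus vehicle) of each gene tested in the list of 10 and in the 8 pathway lists (rows), 1 point per gene, in red where called higher, blue where called lower and grey where not called, with the median of the list as a line and names where the change exceeds 1. The points of the mTORC2 targets lie mostly to the right, with a median of 0.70, while the other lists spread to both sides.

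Of 11 other subunits and assembly factors of the complexes, 3 rose, 3 fell and 5 were not called (54.5%, median -0.16). The mTORC2 subunits beside Rictor parted: *Prr5*, which encodes Protor-1, stood at 177, 216 and 154 in vehicle and 12.1, 36.1 and 61.3 in melatonin samples (-2.54, SE 0.49, adjusted p = 0.00288), and *Mapkap1*, which encodes SIN1, at 1404, 1568 and 1472 and 2205, 1992 and 1711 (0.40, SE 0.10, adjusted p = 0.0120). The *Prr5* paralog *Prr5l* was not called, at 54.2 ± 12.5 in vehicle and 56.1 ± 21.0 in melatonin samples (0.01, adjusted p = 0.978). The ATPase genes *Ruvbl1* (-0.84, adjusted p = 0.000302) and *Ruvbl2* (-1.05, adjusted p = 2.53e-05), whose products help build mTOR complexes, both fell. Among their partners, *Tti1* (0.40, adjusted p = 0.00437) and *Wac* (0.78, adjusted p = 0.00631) rose, and the other partner genes in the list were not called. With upper quartile scaling, quantile normalization or a correction for transcript length 5 genes of this list were called lower.

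Upstream on the lysosome, amino acids reach mTORC1 through the Rag GTPases and the Ragulator, of whose 10 genes 1 rose, 2 fell and 7 were not called (30%, median 0.16): *Rragc* (0.28, adjusted p = 0.0258) was higher and *Rraga* (-0.43, adjusted p = 0.00990) and *Lamtor4* (-0.42, adjusted p = 0.00613) lower. The GATOR complexes, which set the Rag GTPases, had 6 of 12 genes higher and 4 lower (83.3%, median 0.02), a larger called share than that of all genes but in both directions. *Nprl2* (0.68, adjusted p = 0.00402) and *Nprl3* (0.53, adjusted p = 0.00233) of the GATOR1 brake and *Mios* (0.65, adjusted p = 0.00103) of GATOR2 rose, and the anchoring KICSTOR genes *Itfg2* (-0.71, adjusted p = 0.0111) and *Kptn* (-0.54, adjusted p = 0.00695) fell. Among 10 nutrient sensors and folliculin genes, 3 rose and 1 fell (40%, median 0.02). *Sesn1*, whose product binds GATOR2 and restrains mTORC1, stood at 765, 740.2 and 788 in vehicle and 2308, 2191 and 1928 in melatonin samples (1.48, SE 0.09, adjusted p = 2.09e-05). The arginine sensor gene *Castor1* (-1.05, adjusted p = 5.64e-05) fell while its paralog *Castor2* (0.57, adjusted p = 0.00201) and the folliculin gene *Flcn* (0.50, adjusted p = 0.00635) rose. The call of *Rragc* was lost without melatonin replicate 2 (0.27), vehicle replicate 1 (0.28) or vehicle replicate 3 (0.25). Under the length correction *Lamtor4* lost its call, at -0.24 (adjusted p = 0.0530), and *Rraga* stood at -0.25 (adjusted p = 0.0498). Without vehicle replicate 1, 3 GATOR genes were higher, and without melatonin replicate 1, 2 sensor and folliculin genes were lower.

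Growth factor and energy signals meet at the tuberous sclerosis complex. Of 19 PI3K and AKT genes, 7 rose and 3 fell (52.6%, median 0.11): *Pik3ca* (0.70, adjusted p = 0.0186), which encodes a catalytic subunit of PI3K, was among the higher and *Pik3r1* (-0.42, adjusted p = 0.00454) and *Pik3cg* (-0.35, adjusted p = 0.0254) were among the lower. *Akt1* was called (1.08, adjusted p = 0.0415) although its samples overlapped, at 1305, 1569 and 2551 in vehicle and 4699.8, 5539 and 1904 in melatonin samples. Of 12 AMPK and stress genes, 2 rose and 1 fell (25%, median 0.04), with *Stk11* (-1.06, adjusted p = 0.00435), which encodes the AMPK kinase LKB1, lower and its partner *Cab39* (0.76, adjusted p = 0.0208) higher. Over the alternatives the value of *Stk11* ran from -1.26 to -0.65. Calls were lost for *Akt1* without melatonin replicate 1 (0.90), melatonin replicate 2 (0.79), vehicle replicate 1 (0.88) or vehicle replicate 2 (1.01), for *Pik3ca* without melatonin replicate 2 (0.55) or vehicle replicate 2 (0.64), for *Pik3cg* without vehicle replicate 1 (-0.33) or vehicle replicate 2 (-0.31), and for *Cab39* without melatonin replicate 2 (0.68), while without vehicle replicate 1 *Cab39* stood at 0.47. The call of *Akt1* was also lost with the replicate block (adjusted p = 0.0813) and with the length correction (adjusted p = 0.0556). The PI3K and AKT genes called lower numbered 1 without vehicle replicate 1 and 5 without melatonin replicate 1. The AMPK and stress genes called higher numbered 0 without melatonin replicate 2, 1 without vehicle replicate 1 or 2 and 1 with the replicate block.

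Downstream, 5 of 18 genes of mTORC1 targets and translation factors rose and 8 fell (72.2%, median -0.17). The autophagy kinase gene *Ulk1* stood at 220.3, 271 and 402 in vehicle and 1159.8, 871 and 759 in melatonin samples (1.66, SE 0.23, adjusted p = 0.000559), and *Pdcd4* (1.14, adjusted p = 0.00125), an inhibitor of translation initiation, and the lysosomal regulator *Tfe3* (0.75, adjusted p = 0.00183) rose too. The elongation factor gene *Eef2* (-0.70, adjusted p = 0.00110), its kinase *Eef2k* (-1.20, adjusted p = 0.000824) and the initiation factor gene *Eif4b* (-0.98, adjusted p = 0.000203) fell. The ratio of the repressor gene *Eif4ebp1* to *Eif4e*, which encodes the cap-binding protein that it blocks, overlapped at 0.493, 0.505 and 0.547 in vehicle and 0.372, 0.494 and 0.610 in melatonin samples (log2 difference -0.09, exact permutation p = 0.8, adjusted 0.9). Targets of mTORC2 were the list with no call downwards: 7 of 10 rose and 3 were not called (70%, median 0.70). *Sgk1*, a kinase gene, stood at 266, 289.5 and 257 in vehicle and 1082, 947 and 818 in melatonin samples (1.80, SE 0.12, adjusted p = 2.91e-05), and the protein kinase C genes *Prkcd* (0.89, adjusted p = 0.000805) and *Prkcb* (0.98, adjusted p = 0.0142) rose, the latter by 0.64 without vehicle replicate 1. With upper quartile scaling, quantile normalization or the length correction 1 mTORC2 target was called lower. The mTORC1 targets called lower numbered 5 without vehicle replicate 1 or vehicle replicate 2, and also 5 without the mean-variance trend. These are levels of mRNA and give no reading of phosphorylation by either complex.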

How the data were processed

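Bulk RNA was sequenced from 6 ILC2 samples, 3 per group, and groups were taken from the sample titles. The authors trimmed reads by quality, aligned them with STAR 2.7.8a to mm39 in Partek Flow 12.9.0, quantified Gencode M33 genes by expectation-maximization, removed genes with few counts (the smallest sum over the 6 samples in the deposited table is 10 estimated counts) and deposited a gene-level signal, the estimated count divided by a median ratio size factor. Such values are not counts: 64.75% came back as whole reads at a tolerance of 0.01, so no count model was fitted as the main test.

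Differences between groups were tested with limma 3.58.1 in R 4.3.3 (moderated with a mean-variance trend) on log2(normalized count + 1), which understates changes of low genes, for the 14419 genes that reached 10 normalized counts in any sample, with Benjamini-Hochberg adjustment over all of them. A gene is called at an adjusted p under 0.05. Intervals cover the spread between samples. Ratios of genes within a sample were compared by exact two-sided permutation tests. Scripts were tested on simulated data. Names and positions came from Gencode M39 on GRCm39 (16334 of 16381 identifiers), and promoters from RefSeq (GRCm38.p6, 9 of the 10 genes found).

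The 10 genes and the pathway and marker lists were chosen with earlier results of these data known. Genes named are the 10, the genes of the 7 ratios, the nearest pattern of each, and from each pathway list up to 3 largest rises and 3 largest falls among those called whose mean over the 6 samples reached 100 normalized counts. Single results of 2 of these are not reported here. Overlapping genes, cell markers and the paralog *Prr5l* are named where a result turns on them. Alternatives were other pseudocounts, filters, scalings, limma settings, a threshold of 0.01, a correction for transcript length, the replicate number as a block, only libraries with Y-linked reads, and each sample left out.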

Additional observations from a re-analysis of the deposited data

How the results depend on the processing

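The falls of *Rptor* (-1.03 to -0.88, adjusted p at most 0.00223) and *Mtor* (-0.61 to -0.44, at most 0.0400) kept their calls in all 20 alternatives, so 2 of the 10 genes were called lower in each. One of these, the libraries with Y-linked reads, holds 1 melatonin sample, so its calls rest on the spread of the vehicle samples. The number called higher, 2, was 1 without the mean-variance trend, 1 with upper quartile scaling, 1 with the replicate block, 0 with the length correction and 0 at an adjusted p under 0.01, and ran from 1 to 2 without single samples. At that threshold 21 of the pathway genes were higher and 14 lower. In the replicate block, *Rheb* had an adjusted p of 0.0521 (0.25) and *Tsc2* one of 0.0370. Deviations from the group means correlated at -0.054, 0.0064 and -0.0483 between same-numbered samples and at -0.0638 to 0.1126 between the others. With 3 samples per group these values cannot tell whether the numbers pair the samples. *Rps6kb1* was called with sample weights (0.26) and *Mlst8* passed the threshold in the libraries with Y-linked reads (0.29), on 1 melatonin sample. Of 35 called pathway genes chosen by the rule for named genes, 25 kept their call throughout and 0 reversed.

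Differences in log2 ratios that changed sign without single samples ran from -0.11 to 0.012 for *Rheb* to *Tsc2* (the latter without vehicle replicate 1), -0.16 to 0.15 for *Rps6kb1* to *Rps6kb2* and -0.26 to 0.095 for *Eif4ebp1* to *Eif4e* (the latter without melatonin replicate 1). The median log2 fold change of all genes, -0.0046, lay between -0.0512 (upper quartile) and 0.0366 (quantile normalization) under other scalings. The cause of each lost call was not tested. *Deptor*, the lowest of the 10 genes, was not tested at a mean of at least 100.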
